A study of Mus musculus with 9 samples.

Results

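The CD73+ HEB peak list held 10194 peaks on chromosomes 1 to 19, X and Y, and 4779 of them (46.9%, 95% Wilson interval 45.9% to 47.9%) overlapped no peak of the other 5 deposited lists by 1 bp or more. These 4779 sites, called lone peaks here, are the subject. The remaining 5415 peaks of the same list, which met at least 1 peak of another list, are called shared peaks. All 6 lists together held 79216 peaks on those chromosomes. The members were chosen by the called positions of the peaks of all 6 lists, so the number of lone peaks and their absence from the other lists describe the choice and are not results.

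The series mapped the E proteins E2A and HEB by chromatin immunoprecipitation and sequencing in mouse thymocyte precursors at 3 stages. All cells were grown from BALB/c fetal liver progenitors that lacked Rag2 and so made no antigen receptor of their own. DN3 cells, double negative precursors, were harvested at day 7 of culture. CD73- and CD73+ cells came from DN3 cells that were transduced with the KN6 γδ T cell receptor, carried with a YFP reporter, were cultured for 3 days on OP9-DL1 stroma, which expresses a Notch ligand, and were sorted as Thy1+ YFP+ CD4- CD8- CD24+ cells without or with CD73. Each stage had 1 E2A, 1 HEB and 1 input library. Duplicates were joined before deposit, so each list is 1 pooled list with no measure of replicate error. The cells carry 1 receptor, and transduced cells without the receptor were not among the samples. Both antibodies were rabbit polyclonal sera raised to the C termini of the proteins. A peak list holds no expression value, so the cell labels could not be checked against marker genes.

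The E proteins belong to the basic helix-loop-helix family and bind E-boxes (CANNTG) in pairs. Tcf3 is the gene for E2A and Tcf12 the gene for HEB. Id proteins pair with them and keep them off DNA. In the thymus they drive early T lineage genes, and γδ receptor signals through Egr factors raise Id3. CD73, encoded by Nt5e, marks precursors committed to the γδ fate in this system.

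Promoters under some of the highest lone peaks are printed as examples of sequence. Only 265 of the 4779 lone peaks (5.55%) had a listed start site covered or within 1 kb. These promoters therefore do not stand for the lone peaks as a whole. The 6 printed here, in order of score, are the first whose window a lone peak overlapped by at least 100 bases, without Gm3417, whose window repeats that of Tcte3. Each is a 300 bp window of 250 bases before and 50 bases after a start site, taken from RefSeq on GRCm38.p6, the mm10 build of the peaks, and written 5′ to 3′ on the strand of the gene. Capitals mark the E-boxes most often tied to E proteins, CAGCTG and the non-palindromic form CAGGTG with its complement CACCTG, so a window with no capitals holds none of them. Tcte3 encodes a dynein light chain family protein, H4c18 a replication-dependent H4 histone, Denr a factor in translation reinitiation, Zfp398 a zinc finger protein, Hnrnpf a splicing factor and Csrp1 a LIM domain protein.
Tcte3, chr17:15041510-15041809, minus strand: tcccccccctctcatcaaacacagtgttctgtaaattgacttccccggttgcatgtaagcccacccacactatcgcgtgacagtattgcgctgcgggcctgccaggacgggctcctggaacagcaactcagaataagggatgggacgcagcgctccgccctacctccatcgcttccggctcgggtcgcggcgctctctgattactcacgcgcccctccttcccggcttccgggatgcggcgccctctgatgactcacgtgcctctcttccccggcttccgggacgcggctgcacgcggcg
H4c18, chr13:21832148-21832447, minus strand: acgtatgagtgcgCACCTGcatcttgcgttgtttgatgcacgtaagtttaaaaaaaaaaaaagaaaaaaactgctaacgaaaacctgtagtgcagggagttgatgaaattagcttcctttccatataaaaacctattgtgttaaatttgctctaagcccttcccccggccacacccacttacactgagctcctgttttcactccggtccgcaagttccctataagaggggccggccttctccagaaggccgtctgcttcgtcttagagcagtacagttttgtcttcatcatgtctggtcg
Denr, chr5:123907025-123907324, plus strand: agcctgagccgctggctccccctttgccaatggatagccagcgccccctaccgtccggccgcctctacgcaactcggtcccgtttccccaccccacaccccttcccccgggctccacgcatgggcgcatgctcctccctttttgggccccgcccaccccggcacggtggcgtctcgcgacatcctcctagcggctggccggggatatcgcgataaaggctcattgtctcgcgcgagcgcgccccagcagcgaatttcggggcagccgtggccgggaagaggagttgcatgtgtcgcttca
Zfp398, chr6:47835411-47835710, plus strand: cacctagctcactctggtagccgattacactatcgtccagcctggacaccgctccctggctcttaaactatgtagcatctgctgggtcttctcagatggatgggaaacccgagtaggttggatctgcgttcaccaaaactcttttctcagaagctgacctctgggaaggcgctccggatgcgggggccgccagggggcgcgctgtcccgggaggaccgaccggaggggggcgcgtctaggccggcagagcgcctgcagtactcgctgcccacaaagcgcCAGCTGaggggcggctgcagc
Hnrnpf, chr6:117917044-117917343, plus strand: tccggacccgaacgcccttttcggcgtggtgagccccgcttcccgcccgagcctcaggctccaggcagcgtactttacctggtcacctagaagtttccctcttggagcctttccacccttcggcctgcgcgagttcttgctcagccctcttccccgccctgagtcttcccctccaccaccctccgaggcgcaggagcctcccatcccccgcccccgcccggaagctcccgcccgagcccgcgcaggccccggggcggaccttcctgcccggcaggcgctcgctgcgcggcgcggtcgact
Csrp1, chr1:135728917-135729216, plus strand: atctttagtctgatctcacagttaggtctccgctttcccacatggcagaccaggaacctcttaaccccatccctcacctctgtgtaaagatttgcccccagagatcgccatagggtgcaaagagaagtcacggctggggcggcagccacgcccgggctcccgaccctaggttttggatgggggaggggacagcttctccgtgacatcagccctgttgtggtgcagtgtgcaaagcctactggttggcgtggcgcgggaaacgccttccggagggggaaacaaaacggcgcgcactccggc
The peaks over Tcte3 (score 284.97), H4c18 (244.05), Denr (242.07) and Csrp1 (185.48) covered their whole windows, and those at Zfp398 (198.35) and Hnrnpf (191.37) covered 167 and 152 bases. Of the forms in capitals, the H4c18 window holds 1 CACCTG, the Zfp398 window holds 1 CAGCTG, and the windows of Tcte3, Denr, Hnrnpf and Csrp1 hold none. The Tcte3 window is identical at 300 of 300 positions to that of Gm3417, chr17:14978763-14979062 on the minus strand, which lay under another lone peak (264.16).

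The score of a peak is the authors' deposited value, −10 log10 of the MACS p-value, with a minimum of 50. It was used to rank and class peaks within the list. Most lone peaks scored low. Of the 4779, 3035 (63.5%) scored 50 to under 60, 1325 (27.7%) scored 60 to under 80, 243 (5.09%) scored 80 to under 100, 156 (3.26%) scored 100 to under 200 and 20 (0.419%) scored 200 or more. The share of the list that was lone fell with every step. It was 69.2% of 4384 peaks in the lowest class (67.9% to 70.6%), 53.1% of 2496 in the next (51.1% to 55.0%), 28.4% of 856 (25.5% to 31.5%), 11.8% of 1319 (10.2% to 13.7%) and 1.76% of the 1139 highest (1.14% to 2.70%). All intervals here are 95% Wilson intervals. They cover counting error only, and read depth is not in the files.

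Above a score of 100, called strong here, 176 of 2458 CD73+ HEB peaks (7.16%) were lone. The same count over the other lists set the scale. Peaks apart from all other lists made up 83.2% of the CD73+ E2A list, 54.8% of the CD73- HEB list, 68.2% of the CD73- E2A list, 40.0% of the DN3 HEB list and 46.4% of the DN3 E2A list. Among strong peaks these shares were 48.7%, 6.16%, 8.05%, 7.54% and 15.7%, in the same order of lists. The CD73+ HEB share lay inside both ranges, so having lone peaks in this number was not particular to it.

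**Figure D1:**
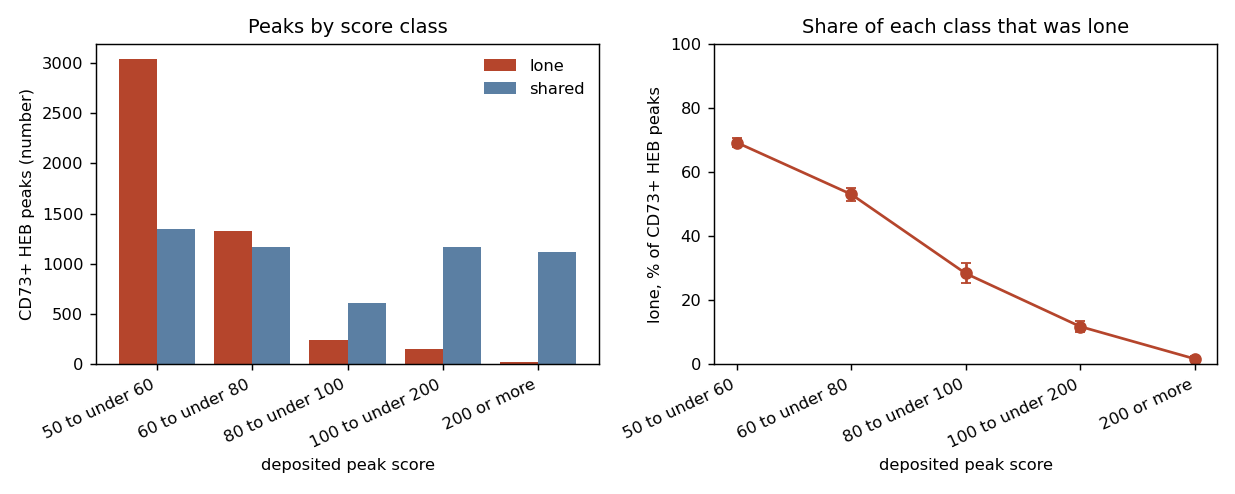
Left, number of lone and shared CD73+ HEB peaks (vertical axis) in each class of deposited score (horizontal axis). Right, lone peaks as a percentage of all CD73+ HEB peaks of the class, with 95% Wilson intervals. The share falls from 69.2% in the lowest class to 1.76% in the highest.

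Of the lone peaks, 2669 (55.8%) had a peak of another list within 10 kb. Their median distance to the nearest peak of another list was 6940 bp, 972 of them (20.3%) had one within 1000 bp, and 4632 (96.9%) had one within 100000 bp. The nearest was a CD73+ E2A peak for 1840 (38.5%), and the CD73+ E2A list was also the longest. At the edge of the rule the values were alike. The 15 lone peaks less than 10 bp from another list scored 50.8 to 82.6 with a median of 58.4, and the 17 shared peaks that overlapped by less than 10 bp scored 50.4 to 121.6 with a median of 62.3. Klf10, which encodes a TGFβ-inducible zinc finger factor, had a lone peak of 194.8 with a DN3 HEB peak of 58.2 at 121 bp from it.

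Lone peaks were narrow. Their median width was 160 bp (quartiles 144 and 189 bp, range 61 to 1180 bp), against 242 bp for shared peaks (166 and 423 bp, longest 38432 bp), and 22 lone against 928 shared peaks were wider than 500 bp. Within score classes the difference was smaller. Lone and shared medians were 156 and 163 bp at 50 to under 60, 172 and 190 bp at 60 to under 80, and 225 and 245 bp at 80 to under 100. They were 343.5 and 354 bp at 100 to under 200, and 459.5 and 519 bp at 200 or more. The lone median was lower in each class, and the quartile ranges overlapped in each. A wider peak is more likely to meet a peak of another list, so the rule itself favours narrow lone peaks, and this width difference is a description only. Across lone peaks, which are regions of 1 library and not replicates, the Spearman correlation of width with score was 0.301 (n = 4779). It was 0.689 over 5415 shared peaks. Among strong peaks it was 0.596 for 176 lone and 0.593 for 2282 shared peaks.

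**Figure D2:**
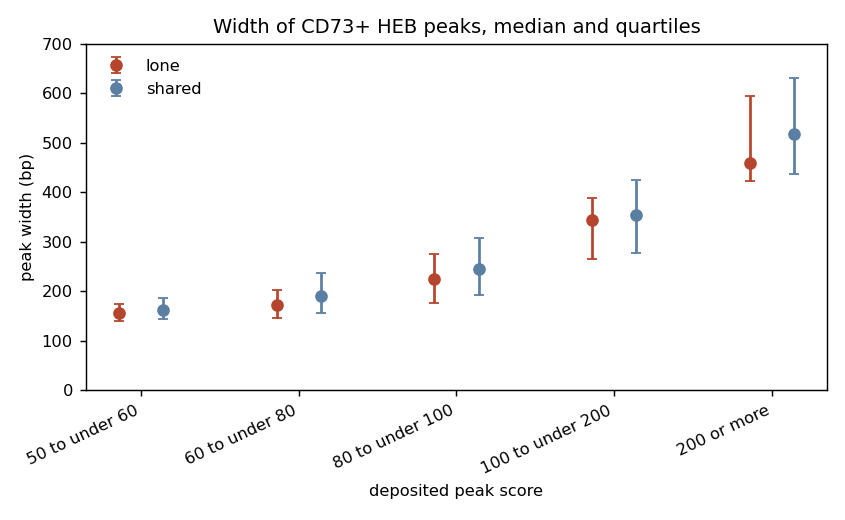
Peak width in bp (vertical axis) by class of deposited score (horizontal axis) for lone and shared CD73+ HEB peaks. Points are medians and bars run between the quartiles. Widths grow with score in both, to a median of 459.5 bp for lone and 519 bp for shared peaks at 200 or more.

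The 3 widest lone peaks were the 2 at Gm3417 and Tcte3 on chromosome 17, of 1180 and 1164 bp, and the H4c18 peak of 880 bp. The first ran from 14978351 to 14979530 at 9030025P20Rik, and the second from 15041102 to 15042265 at Ermard. Their start windows are the identical sequences named above, so reads from 1 copy cannot be told from the other at that stretch. How reads with several matches were treated is not given in the sources used here.

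Gene position was taken from the spans of 21887 protein-coding genes and from start sites listed for 17492 of them. Over all scores, lone peaks lay farther from genes than shared ones. Of lone peaks, 1628 (34.1%, 32.7% to 35.4%) lay in a gene span, against 2415 shared peaks (44.6%). A start site was covered or within 1 kb for 265 lone peaks (5.55%, 4.93% to 6.23%) and 413 shared peaks (7.63%, 6.95% to 8.36%). No protein-coding gene lay within 100 kb of 1236 lone peaks (25.9%, 24.6% to 27.1%) and 850 shared peaks (15.7%, 14.8% to 16.7%). Among lone peaks of the other lists, the share this far away ran from 13.2% (DN3 E2A) to 36.9% (CD73+ E2A). Their share at start sites ran from 0.487% (CD73+ E2A) to 6.45% (DN3 HEB). Over all scores, neither CD73+ HEB share was thus particular to that list. Start sites on chromosome 18 are not used here, and 127 lone peaks lie there. Genes elsewhere also lack a listed start site, so the counts at start sites are lower bounds. The lone peak 33 bp from Klf10, for example, had its nearest listed start site 1833116 bp away.

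Strong lone peaks had another layout. A start site was covered or within 1 kb for 39 of 176 (22.2%), against 219 of 2282 strong shared peaks (9.60%, 8.46% to 10.9%). The lone share was 3.99%, 6.04%, 10.3%, 21.2% and 30.0% over the 5 score classes in rising order, the last of 20 peaks. The shared share was 6.08%, 5.89%, 7.02%, 9.20% and 10.0%. Without the clustered histone genes described below, 28 of 165 strong lone peaks (17.0%, 12.0% to 23.4%) and 201 of 2264 strong shared peaks (8.88%, 7.78% to 10.1%) lay at start sites. Among peaks scoring at least 100 and lone in another list the share at start sites was lower. It was 14 of 794 (1.76%) for CD73+ E2A, 1 of 83 for CD73- HEB, 0 of 88 for CD73- E2A, 25 of 269 (9.29%) for DN3 HEB and 35 of 789 (4.44%) for DN3 E2A. Among strong shared peaks the CD73+ HEB share, 9.60%, was also the highest. In the same order of lists the others had 2.87%, 7.59%, 6.27%, 7.49% and 6.28%. A score of 100 need not mean the same in each list, and each share comes from 1 pooled list, so no test was made. Around start sites, lone midpoints were spread on both sides, 141 upstream and 124 downstream with a median of −21 bp, against 206 and 207 with a median of 1 bp for shared peaks.

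**Figure D3:**
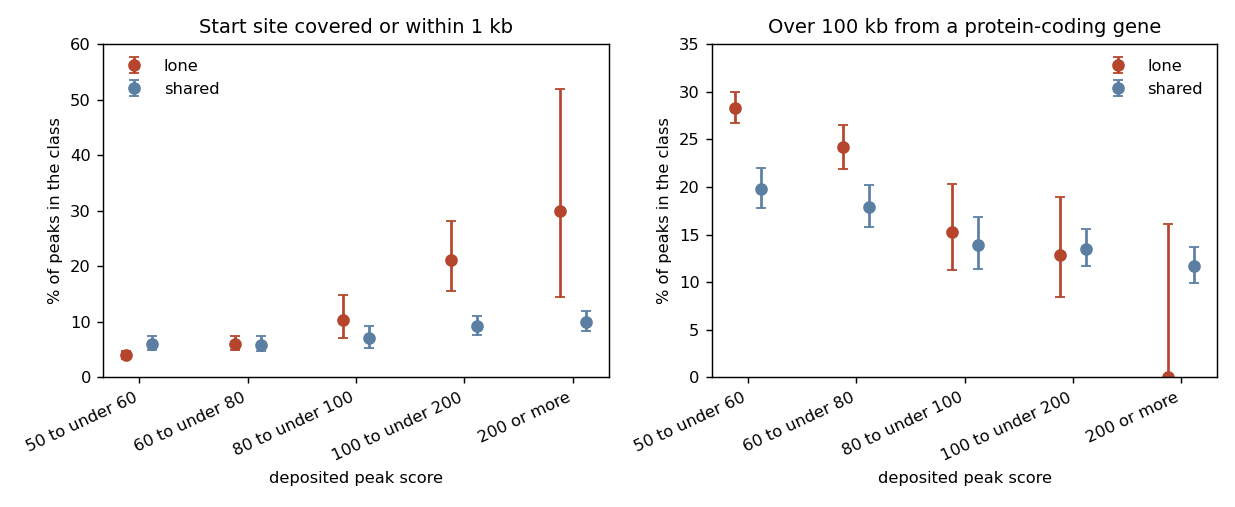
Percentage of peaks of a score class (vertical axes) with a start site covered or within 1 kb, left, and with no protein-coding gene within 100 kb, right, against the class of deposited score (horizontal axes). Points are lone and shared CD73+ HEB peaks and bars are 95% Wilson intervals. The lone share at start sites reaches 30.0% of 20 peaks in the highest class, and the lone share over 100 kb away falls from 28.3% to 0 of 20.

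Promoter sequence was read for the windows that a peak overlapped. At least 1 of the 3 E-box forms in capitals, searched on both strands, was in 40.4% of the 151 windows under lone peaks (32.9% to 48.4%), 62.1% of 240 under shared peaks (55.8% to 68.0%) and 31.9% of all 21263 windows. CAGCTG reads the same on both strands and was in 18.5%, 32.9% and 15.6%. CAGGTG, whose other strand reads CACCTG, was in 24.5%, 41.2% and 19.7%. The looser CANNTG, which includes all of these, was in 70.9%, 80.8% and 69.0%. CCAAT or ATTGG, the CCAAT box in its 2 orientations, was in 39.7%, 33.3% and 38.2%. For the 3 forms together the intervals of lone and shared windows did not overlap. For CANNTG they did (63.2% to 77.5% and 75.4% to 85.3%). By the rule, every shared peak met an E2A or HEB peak of another list. The choice of members may itself bear on these E-box shares, which was not tested. The intervals cover counting error over peaks of 1 list, so the difference is a description only. The 151 windows come from 143 genes and the 240 from 218. Some are copies, as at Tcte3 and Gm3417, so these intervals may be too narrow. Median GC content was 63.0% under lone peaks, 62.7% under shared peaks and 56.3% over all windows, and its part in these shares was not tested. Among the 32 windows under strong lone peaks 40.6% held at least 1 of the 3 forms (25.5% to 57.7%). Under strong shared peaks 59.9% of 142 windows did (51.6% to 67.6%), and these intervals overlapped. For CANNTG the order was reversed among strong peaks, with 87.5% of the 32 lone and 79.6% of the 142 shared windows. The intervals for CANNTG overlapped there too. A match marks letters in a window, not a bound site.

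The 25 highest lone peaks were led by Glb1, which encodes lysosomal β-galactosidase. The peak (377.23, 600 bp) ran from 114452154 to 114452753 on chromosome 9 inside the Glb1 span, 43790 bp from the start of Ccr4 and 8089 bp from a DN3 E2A peak of 255.32. Peaks inside spans also lay at Ubash3b (252.71), a phosphatase that dampens T cell receptor signals, Eml4 (217.47), a microtubule-associated protein, Fam102a (210.52) and Cdc42se2 (206.67), an effector of Cdc42. Plcl2, a phospholipase C-like protein, held 2 peaks, of 219.83 and 203.0. Hnrnpf (191.37), a splicing factor, had one 98 bp from its start.

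Others of the 25 stood outside genes. The peak nearest to Nrp2, a neuropilin receptor, was 56805 bp from it (255.5), that nearest to Rab30, a small GTPase, 20608 bp (254.44), that nearest to Adamts20, a metalloprotease, 32792 bp (236.89), and that nearest to Akap7, a protein kinase A anchor, 54352 bp (207.02). A peak of 188.13 lay 8210 bp from Ddx6, an RNA helicase. The Rab30 and Cdc42se2 peaks were the most isolated of the 25, with the nearest peak of any other list 65748 and 61242 bp away. Among start sites, the rule for named genes added Csrp1 (185.48), a LIM domain protein, and Wdsub1 (167.73), each with a start site under the peak.

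Of the 25, 3 lay over clustered histone genes, those of H2ac23, H2ac4 (245.16) and H4c18. These genes are transcribed in S phase and sit in tight groups on chromosomes 13 and 3. The group was picked after its values were seen, so it is described with no test. A lone peak lay in or within 1 kb of 39 of the 64 genes (60.9%), against 6.82% of all protein-coding genes. They were 29 of 54 genes on chromosome 13 and 10 of 10 on chromosome 3. By family, genes with a lone peak were 10 of 12 H3, 11 of 17 H2A, 7 of 16 H2B, 2 of 6 H1 and, of the H4 genes named H4c, 8 of 12. A shared peak lay at 33 (51.6%), against 8.6% of all protein-coding genes, and 55 of the 64 had a CD73+ HEB peak of either kind.

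All 33 lone peaks at these genes overlapped the gene span. They scored 51.5 to 289.77 with a median of 85.3, and 11 were strong. The 21 shared peaks there scored 55.5 to 342.93 with a median of 176, and 18 were strong. The other lists had fewer peaks at these genes. The CD73+ E2A list had 10, of 51.8 to 82.8, the CD73- HEB list 16, of 50.6 to 97.8, and the CD73- E2A list 6, of 52.6 to 70.2. The DN3 HEB list had 4, of 52.2 to 94.5, and the DN3 E2A list 5, of 50.6 to 59.2. Of the 54 peaks in the CD73+ HEB list 29 scored at least 100, and none of the peaks in the other lists did. Scores depend on depth, so these values stand side by side and show no difference in binding strength. Histone genes of a family are near copies, so which copy a read came from is uncertain.

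Small nuclear RNA genes, which encode spliceosomal and related RNAs in many copies, were the other group, also picked after its values were seen. Over all scores, 29 of 4779 lone peaks lay within 1 kb of one (0.607%, 0.423% to 0.870%), and 18 covered it. Of 5415 shared peaks, 19 lay that near (0.351%, 0.225% to 0.547%), and these intervals overlapped. Scores there had a median of 64.7 for lone and 128.9 for shared peaks, and the highest, 417.09, was a shared one. Of the 176 strong lone peaks 9 lay within 1 kb of one (5.11%, 2.71% to 9.43%), against 12 of 2282 strong shared peaks (0.526%, 0.301% to 0.917%). They included 4 of the 25 highest, a peak of 273.6 over Rnu3b3 inside Tex14, and peaks of 245.72 and 211.27 over Gm23971 and Gm24950 beside Rdm1, and the peak of 187.85 nearest to Arhgap5, which lay 626 bp from LOC115488100. Further peaks of 181.9 and 166.46 lay within 1 kb of Rnu1a1 and Rnu2-10. The CD73+ HEB list had 21 strong peaks at these genes in all, CD73+ E2A, CD73- HEB and CD73- E2A had 0, DN3 HEB 2 and DN3 E2A 8. Copies of these genes are also near identical.

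**Figure D4:**
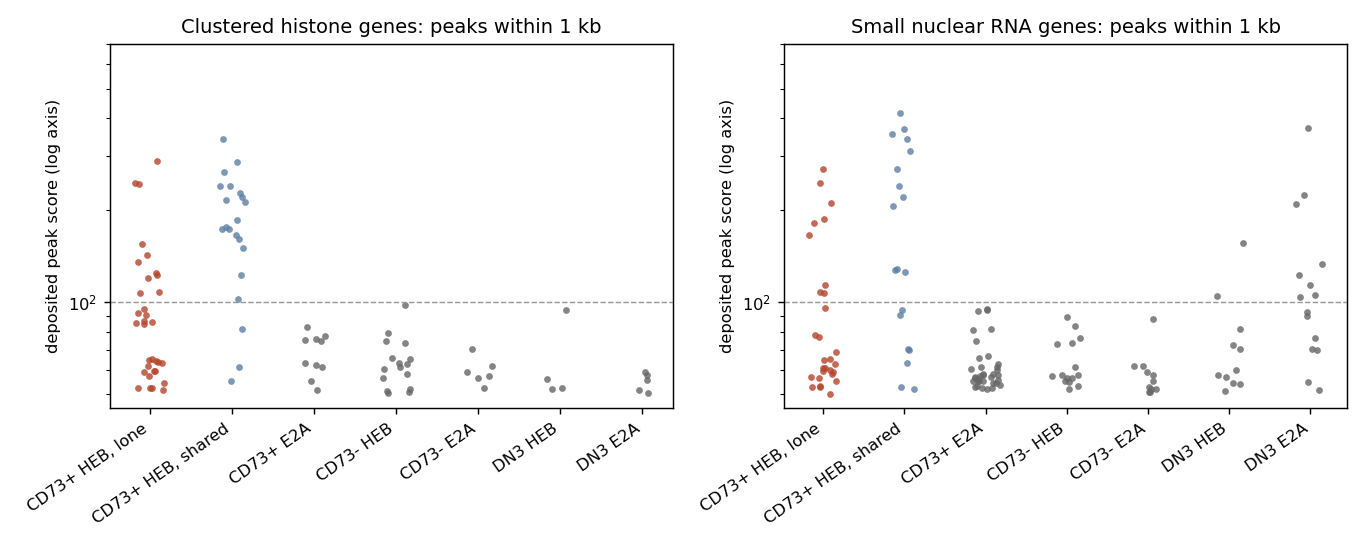
Deposited score (vertical axes, logarithmic) of every peak within 1 kb of a clustered histone gene, left, or a small nuclear RNA gene, right, for lone and shared CD73+ HEB peaks and for the other lists (horizontal axes). Each point is 1 peak, spread sideways for sight, and the dashed line is at 100. At histone genes the points above 100 are all from the CD73+ HEB list.

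Across genes, 2242 of 21887 (10.2%) had a lone peak in the span or within 10 kb, 165 (0.754%) a strong one and 2687 (12.3%) a shared one. Genes with a lone peak were longer, with a median span of 39050 bp against 15923 bp for genes without. By quartile of span, 6.31%, 6.23%, 9.18% and 19.3% of genes had one. The count for a list of genes therefore needs its span beside it, and 17169 bp is the median over all. The 20 gene lists, of T cell and γδ biology, of general cell functions and of markers of 4 other lineages, matched 313 genes. Of these, 50 (16.0%) had a lone peak and 122 a shared one, 24 had a lone peak alone and 26 had both. The highest lone score per gene had a median of 62.7 over the 50, against 58.8 over all 2242 genes. Median spans were 95423.5 bp for T lineage transcription factors, 65433 bp for chromatin modifiers and 50975.5 bp for proximal T cell receptor signalling. They were 32366 bp for cytokine receptor and JAK-STAT genes, 28269.5 bp for NF-kB and NFAT and 6508.5 bp for the response to receptor signals. The part of span in the list shares was not tested.

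Notch pathway genes had the highest share. Of the 20, 8 had a lone peak and 5 a shared one, with a median span of 33367.5 bp. Maml3, a coactivator of Notch, held 3 lone peaks with a highest score of 118.04, beside 3 shared peaks with a top of 486.72. The highest peak of another list in its window was a DN3 E2A peak of 2424.94. The receptor gene Notch2 had one of 90.5, and the ligand gene Jag1 one of 50.4, which lay 488 bp upstream. Hes1, a target and repressor, had 2, the higher of them (62.9) 676 bp away. The others were Hey1 (54.0), another target, Maml2 (53.8), also a coactivator, Mfng (52.3), a Fringe glycosyltransferase that modifies Notch, and Dtx1 (51.2), a ubiquitin ligase of the pathway. The peaks of all but Maml3 scored below 100. Notch2 and Mfng also had shared peaks, with tops of 121.4 and 64.7. Their highest lone peaks lay 674 and 668 bp from DN3 E2A peaks of 209.8 and 165.8. Jag1, Hes1, Hey1, Maml2 and Dtx1 had no shared peak. The count of 8 was 6 with no other list within 1000 bp and 5 for spans only.

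Genes of proximal T cell receptor signalling had a lone peak at 4 of 20. Themis, needed for thymocyte selection, had one of 142.81 inside the gene, Ptpn22, a phosphatase that restrains receptor signals, one of 96.4 with its midpoint 435.5 bp from the start, Cd5, an inhibitory surface receptor, one of 53.3, and Sh2d2a, an adaptor, one of 52.6. Genes of the response to receptor signals had one at 5 of 20, namely the activation-induced surface genes Tnfrsf9 (65.3) and Cd69 (64.5), the AP-1 gene Fos (55.7), the orphan nuclear receptor gene Nr4a1 (54.0) and Id3 (52.8). Nr4a1 also had a shared peak of 750.71. NF-kB and NFAT genes had one at 4 of 18, led by Nfkb1 (88.2), which encodes an NF-kB subunit, with the adaptor gene Traf1 (62.8), the atypical inhibitor gene Nfkbid (59.0) and the paracaspase gene Malt1 (52.2).

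Cytokine receptor and JAK-STAT genes had a lone peak at 6 of 27. Stat4, a signal transducer of IL-12, had one of 95.3 at 6616 bp downstream, beside a shared peak of 51.1. Il6ra, a chain of the IL-6 receptor, had one of 77.5 beside a shared peak of 1806.02. Ifngr2, a chain of the interferon γ receptor, had one of 70.1, Stat3 one of 55.6 with its midpoint 193 bp from the start, and Il12rb2, a chain of the IL-12 receptor, one of 50.9. Chromatin modifiers had one at 5 of 20. Tet1, which oxidises 5-methylcytosine, had a strong one of 155.42 inside the gene on chromosome 10, from 62862440 to 62862791. The DNA methyltransferase genes Dnmt1 (71.6), Dnmt3a (69.0) and Dnmt3b (51.0) and the histone methyltransferase gene Kmt2a (52.6) had weaker ones.

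Transcription factors of the T lineage had a lone peak at 3 of 20 and a shared peak at 12. They were Lef1 (99.8, the higher of its pair), which encodes an HMG box factor related to TCF-1, Tox (74.8), another HMG box factor of T cell development, and Bach2 (57.4), a repressor of effector genes. Regulators of γδ effector fates had one at 2 of 16. Sox5, an HMG box gene, held 4 with a top of 94.0 in a span of 953863 bp, and Ccr6, a chemokine receptor of IL-17 producers, had 58.3. Of 15 γδ maturation and surface genes 2 had one, Nt5e and Cd28. Pre-TCR and αβ lineage genes had none at 18, with a shared peak at 12.

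Other lists stood near the share of all genes or held few. Costimulation genes had a lone peak at 3 of 20, the receptor gene Cd28 (62.6) and, counted above, Tnfrsf9 and Cd5. Chemokine receptor and homing genes had one at 2 of 18, Ccr6 and Ccr4 (74.2), with the midpoint of the Ccr4 peak 248.5 bp from the start. Apoptosis genes had one at 2 of 18, among them Bbc3 (98.2, the top of 3, beside a shared peak of 744), which encodes the proapoptotic protein PUMA. Cell cycle genes had one at 2 of 20, the cyclin D2 gene Ccnd2 (92.1) and the kinase gene Cdk2 (52.8). NK and innate lymphoid genes had one at 1 of 16, Tyrobp, the DAP12 adaptor gene, through the Nfkbid peak.

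Markers of other lineages were counted in the same way. Lone peaks lay at 2 of 10 B lineage genes, Pax5 (61.3) and Ighm (64.0), and at 2 of 10 myeloid genes, Itgam (61.3) and Fcgr3 (53.6). None lay at 10 erythroid or 10 stromal genes. Shared peaks lay at 1, 1, 0 and 2 genes of these lists, those of the first 2 being Ighm (top 214.65) and Itgam (top 1134.41). Of the 20 lists, 5 had a lone share above the 20.0% of the B lineage and myeloid markers. They were the Notch pathway, chromatin modifiers, the response to receptor signals, NF-kB and NFAT, and cytokine receptors. The last 2 stood at 22.2%, and each 20.0% is 2 of 10 genes, so no order of the lists is read from these counts. The B lineage and myeloid lists had median spans of 5531.5 and 4300 bp.

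**Figure D5:**
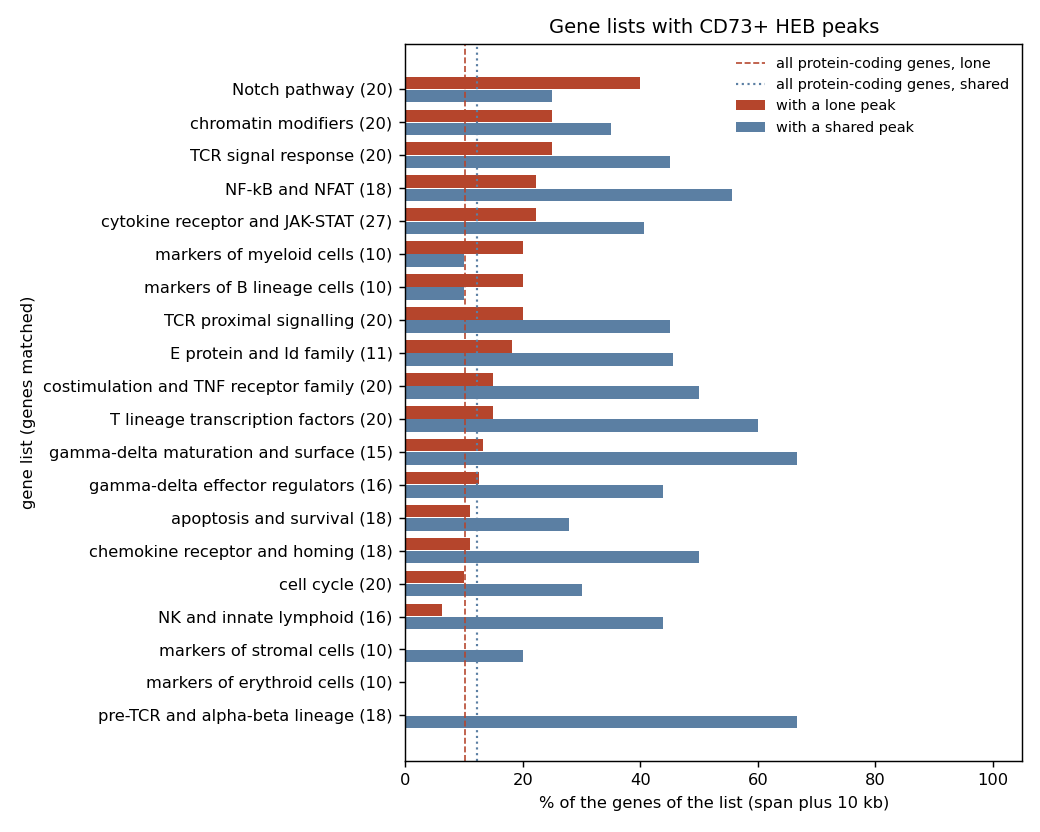
Percentage of the genes of each list (horizontal axis) with a lone or a shared CD73+ HEB peak in the span or within 10 kb, by list (vertical axis, number of matched genes in parentheses). The dashed and dotted lines mark 10.2% and 12.3% of all protein-coding genes. The Notch list reaches 40.0% for lone peaks, and the pre-TCR and αβ list has 0 of 18.

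Of 11 genes in the E protein and Id list, which also holds partners such as Ldb1, 2 (18.2%) had a lone peak. These were Id3 and Ldb1, of which only Id3 is itself an E protein or Id gene. Nt5e, the gene for CD73, had 1 of 89.6, from 88380130 to 88380384 on chromosome 9 and 8040 bp downstream of the gene, with no shared peak in its window. The other peak in that window was a DN3 HEB peak of 66.4, 17582 bp from the lone one. Id3 had 1 of 52.8, from 136140017 to 136140193 on chromosome 4, 3628 bp upstream of the gene, beside 2 shared peaks with a top of 94.3. Ldb1, which bridges E protein complexes, had 1 of 55.5. No lone peak lay at Tcf3, Tcf12, Tcf4, Id2, Icos, Ifngr1, Ctnnd1, Sox13, Zbtb16, Egr2, Gata3, Bcl11b, Il7r, Cd27, Ccr9 or Tbx21. The highest shared peaks at these genes were those of Cd27 (1127.95) and Ccr9 (1078.82).

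The genes with the most lone peaks within 10 kb were members of multicopy families or histone genes. 4930467E23Rik had 10 (53.1 to 89.5), Gm9495 9, Gm7592 7 and H3c2 and Speer4d 6 each. Neighbours in the same list were counted too. Another CD73+ HEB peak lay within 10 kb of 1034 lone peaks (21.6%) and of 2242 shared peaks (41.4%). Among strong peaks the shares were 35.8% of 176 lone and 38.4% of 2282 shared peaks.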

How the data were processed

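Peak lists from 9 libraries were used, 6 lists with 1 per stage and antibody. Bowtie, HOMER and MACS 1.4.2 and the build mm10 stand in the submitters' processing notes, and per the labels duplicates were joined into 1 file. The values are the authors' deposited score, −10 log10 of the MACS p-value. No column was left unmatched (0). Depth is not in the files, and read filters are not given in the sources used here. Gene spans, start sites and promoter sequences are from RefSeq GRCm38.p6, and exon positions and peak sequences were not analysed here. Peaks outside chromosomes 1 to 19, X and Y were left out. The distance calculation was checked against bedtools 2.31.1. Calculations ran in Python 3.11.15 (pandas 2.3.3, numpy 2.4.6, scipy 1.17.1), and plots in matplotlib 3.10.9. The members and gene lists were chosen with earlier results of these data known.

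Named genes are those nearest to the 25 highest lone peaks, the 5 genes with most, up to 3 per list with the highest, up to 10 at start sites, the 3 widest and a set of 19 named whatever their values. Other members of a list are named after their values were seen. Alternatives covered distance, overlap, score, lists, chromosomes, annotation and window. Lists were described by counts with no test. A few genes named by this rule are not reported here.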

Additional observations from a re-analysis of the deposited data

How the results depend on the processing

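The number of lone peaks was 4779. It stayed within 1.5 times of that under 11 alternatives, and was 2110 when no other list was allowed within 10000 bp and 176 at a score of at least 100. The share in a gene span, 34.1%, was 57.95% at that score, 44.07% over all annotated genes and 36.04% without X and Y. The share at start sites, 5.55%, was 22.16% at that score and 7.135% at either gene end, an alternative chosen after seeing the data. The share over 100 kb from a gene, 25.9%, was 11.36% and 6.884% at that score and over all annotated genes. The median width, 160 bp, was 354 bp at that score. The number of genes, 2242, was 5187 within 50 kb, 1362 for spans only and 165 at that score. In each, the cause was not tested beyond the change of members or window itself. The 20 gene lists changed by more than 1.5 times in 43 of 120 settings, where counts are small. For the clustered histone genes, added after the data were seen, 39 became 16 at that score, 21 with no other list within 1000 bp, 30 for spans only and 44 without the CD73- HEB list. No paired analysis was possible because each group has 1 pooled list.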

Other observations

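Lone peaks were frequent on the X chromosome, with 386 of 4779 (8.08%) against 174 of 5415 shared peaks (3.21%), but only 4 of the 176 strong lone peaks lay there. The X share of lone peaks was above that of shared peaks in all 6 lists, 9.37% and 6.37% for CD73+ E2A, for example, so this was not particular to the CD73+ HEB list.

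Some lone peaks stood in runs, each peak within 10 kb of the next. Of the runs, 11 held 4 or more. The longest were 9 peaks near Gm7697 and Zfp868 on chromosome 8 from 69554789 to 69581428 (50.3 to 99.5), 9 at Gm9495 on the same chromosome from 69427958 to 69450854, and 7 over histone genes on chromosome 13 from 23738960 to 23762277 (54.4 to 245.16). A further 7 lay at Speer4d on chromosome 5. The first run held 10 peaks of other lists between its members. The runs of 4 at Gm6460 on chromosome 5 and at Btbd35f9 on the X chromosome held 0.

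Few lone peaks lay at antigen receptor V segments, 7 (0.147%) within 1 kb, against 48 shared peaks (0.886%). At tRNA genes 7 lone and 2 shared peaks lay within 1 kb. Of 5 lone peaks within 1 kb of a microRNA gene, the highest were 131.16 near Mir6924 and 122.22 over Mir7238.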
